A study of Mus musculus with 8 samples.

Results

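Glycolysis and the response to low oxygen were followed through 36 genes in ribosome-bound RNA of embryonic mouse lung. The genes were taken by symbol from a fixed list of glucose and lactate transporters, glycolytic enzymes, regulators of glycolytic flux, the oxygen-sensing machinery and its targets. That list was chosen with earlier results of these data known. Its shares beside those of all records are therefore descriptions and not independent support. All 36 were found among the 24487 records of the deposited tables, with 1 record each. Glycolysis splits glucose into pyruvate, and lactate dehydrogenase turns pyruvate into lactate, which leaves the cell through monocarboxylate transporters. When oxygen falls, prolyl hydroxylases (EGLN proteins) no longer mark the HIF alpha subunits for destruction, and HIF raises the transcription of many glycolytic genes and of the hydroxylase genes themselves. The embryonic lung grows in low oxygen, and its branching tips are formed by SOX9-positive epithelial progenitors.

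The study profiled C57BL/6 embryonic lung by translating ribosome affinity purification (TRAP), in which the RNA on the ribosomes of labelled cells is recovered by immunoprecipitation of protein L10 and sequenced. The labelling was induced with tamoxifen. At E14 and at E17 there was 1 TRAP and 1 whole lung library, all of wild-type genotype, and at E16 there were 2 wild-type and 2 Sox9-mutant TRAP libraries. The whole lung libraries held total mRNA of the homogenate by their labels, although the series design calls the E14 reference a supernatant. The titles of the E16 libraries carry "E13E16", whose meaning the labels do not give. The promoter that drove the labelling, the kind of Sox9 allele, any pooling of embryos and whether replicates came from separate embryos are not given in the sources used here. The p-values therefore reflect the spread between these libraries alone, which may be technical. Values are FPKM (fragments assigned to a gene per kilobase of its transcript, and scaled between libraries in a way the sources used here do not describe), which puts genes of different length on 1 scale.

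HIF binds the core sequence ACGTG or GCGTG, so the 250 bases upstream of the annotated start were searched for both motifs on both strands. A window was found for 32 of the 36 genes (RefSeq, mm10), and Bnip3l, Ndrg1, Epas1 and Slc2a3 had none. For a gene with several listed starts, the window nearest the start of the deposited record was taken. For the comparison over all genes the first listed window was taken instead. ACGTG stood in 18 of the 32 windows (56.2%), against 16.6% of the 27018 genes with a window of the same length, and GCGTG stood in 17 (53.1%), against 28.2%. The 27018 genes were taken whether or not they were detected in these libraries. The windows of these genes also held more G and C (median 64.0%, against 52.0% over all genes), and the part of base composition in these shares was not tested. The windows of 3 genes that were lower in the Sox9 mutant and of 1 gene that was higher are printed in the direction of transcription with every ACGTG or GCGTG match on either strand in capitals. Ldha and Bnip3 hold 5 matches each, the most of the 32 windows, Egln3 holds 1 and Hk1 holds none. A CACGTG counts as 2 matches, 1 on each strand, so the capitals form 3 stretches in Ldha and 4 in Bnip3. Hk1 was the only risen gene with a window. Hk1 and Ldha each had 2 listed windows, and which start was used in these cells was not tested. The windows lie at chr7:46845554-46845803 on the plus strand (Ldha), chr7:138909507-138909756 on the minus strand (Bnip3), chr12:54203875-54204124 on the minus strand (Egln3) and chr10:62379909-62380158 on the minus strand (Hk1), and each ends at the base before the first base of the deposited record.
Ldha: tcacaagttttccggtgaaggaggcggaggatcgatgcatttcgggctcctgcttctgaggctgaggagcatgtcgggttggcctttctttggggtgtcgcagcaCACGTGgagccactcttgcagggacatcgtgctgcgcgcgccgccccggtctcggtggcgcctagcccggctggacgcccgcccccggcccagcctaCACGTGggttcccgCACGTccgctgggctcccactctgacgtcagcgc
Bnip3: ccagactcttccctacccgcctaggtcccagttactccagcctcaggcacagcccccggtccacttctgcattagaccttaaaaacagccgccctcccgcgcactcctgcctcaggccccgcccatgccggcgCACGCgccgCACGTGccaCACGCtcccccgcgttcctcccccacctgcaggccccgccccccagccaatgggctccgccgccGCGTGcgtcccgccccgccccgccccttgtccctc
Egln3: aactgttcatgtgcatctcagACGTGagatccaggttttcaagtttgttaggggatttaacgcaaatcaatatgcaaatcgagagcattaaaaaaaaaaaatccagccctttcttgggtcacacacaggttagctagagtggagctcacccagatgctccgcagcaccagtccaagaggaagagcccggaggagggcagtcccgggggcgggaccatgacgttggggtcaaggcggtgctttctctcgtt
Hk1: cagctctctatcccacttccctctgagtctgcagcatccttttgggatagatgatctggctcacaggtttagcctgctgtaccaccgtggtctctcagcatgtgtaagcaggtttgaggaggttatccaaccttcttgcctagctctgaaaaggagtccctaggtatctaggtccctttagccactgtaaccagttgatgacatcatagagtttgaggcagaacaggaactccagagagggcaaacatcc
A match is a description of the letters and not a binding site. ACGTG was not more frequent among the genes that fell in the mutant: it stood in 8 of the 16 windows of genes that fell and in 10 of the 14 windows of genes that were not called. Either motif stood in 14 of the 16 and in 12 of the 14.

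The libraries held 9783768 to 21500523 fragments, as inferred from the deposited confidence bounds. Sox9 itself was at 35.9 and 36.4 FPKM in the wild-type E16 libraries and at 12.8 and 11.0 FPKM in the mutant, and it was at 63.9 (E14) and 68.5 FPKM (E17) in TRAP against 15.0 and 16.7 FPKM in whole lung. In 1 wild-type E16 library (replicate 1) the microRNA record Mir762 took 50.05% of all FPKM, and in E17 TRAP it took 33.95%, so those library totals do not describe the amount of mRNA. All 12 epithelial markers were higher in TRAP than in whole lung, all 11 mesenchymal and all 11 endothelial markers were lower, and none of these markers was listed at 0 in any library. In the E16 mutant 8 of 10 distal tip markers fell (80.0%, against 14.3% of all records), 1 rose (10.0%, against 17.4%) and 1 was not called. The 10 summed to 5150 and 5830 FPKM in the wild-type libraries against 542 and 532 FPKM in the mutant. Most of the wild-type sum was Sftpc, at 3790 and 4490 FPKM against 176 and 162 FPKM in the mutant. The summed epithelial markers were 2410 and 2390 FPKM in wild-type and 3280 and 3160 FPKM in mutant libraries. In such bulk libraries, fewer cells of a type and less RNA per cell cannot be told apart, and the part of these shifts in the results on glycolysis was not tested.

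Levels ran over several orders of magnitude, from the neuronal enolase to Gapdh. Gapdh was the highest of the 36 genes in all 8 libraries, from 1243 FPKM in E17 whole lung to 2975 FPKM in E14 TRAP. Eno1, Pkm, Ldha and Tpi1 followed, each between 282 and 1009 FPKM. The genes with near-identical processed copies in the genome, among them Gapdh, Aldoa, Tpi1, Eno1, Pkm and Ldha, are uncertain in level, since how reads shared with the copies were counted is not stated. For 10 genes, these 6 included, the deposited bounds did not narrow with level as counting error would, so no fragment numbers are given for them. The library totals of fragments above were summed over all records, these genes included. At the other end, Eno2 (the neuronal enolase) was at 0.0973 to 0.679 FPKM and was the 1 gene under the filter of a mean of 1 FPKM, which left 35 genes for the tests.

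**Figure D1:**
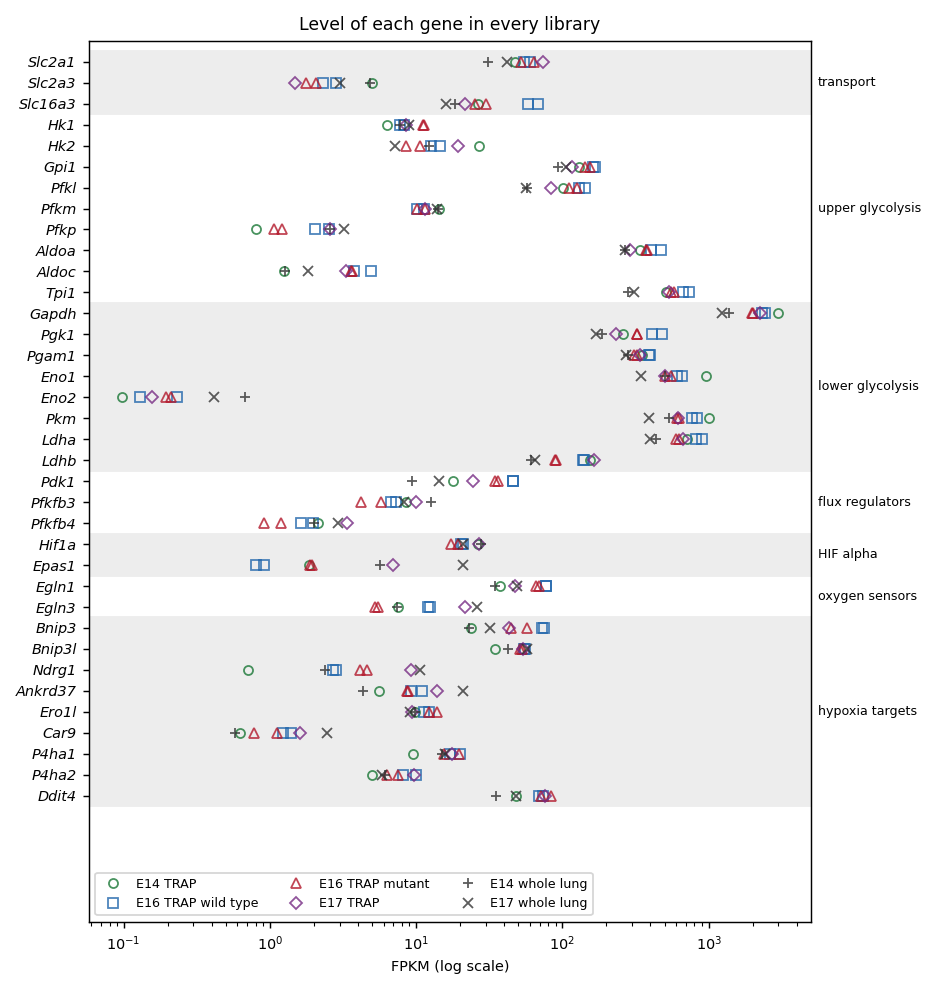
FPKM of each of the 36 genes (log axis) in every library, grouped by role; each symbol is 1 library, and the E16 groups have 2. Slc16a3, Ldhb and Egln3 show wild-type E16 squares apart from the mutant triangles, and the symbols of Epas1 and Ndrg1 are spread the widest.

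The first comparison asked how the mutant differed from the wild type at E16. Of the 35 genes tested, 16 were lower in the mutant (45.7%, against 14.3% of all 11872 records tested) and 3 were higher (8.6%, against 17.4% of all records), at a Benjamini-Hochberg adjusted p under 0.05 in limma. The median log2 difference of the 35 genes was -0.25, against 0.01 over all records. Since the genes were chosen with earlier results of these data known, these contrasts only describe the list. These directions are on the deposited scale: bringing all libraries to a common FPKM total, which Mir762 dominates in 1 wild-type library, shifted the median over all records to 0.41. With that total 0 of the 35 genes were called, and of all 11872 records only 167 were higher and 58 lower. Relative to all records the 35 genes then stood at -0.27, against -0.26 on the deposited scale. With records under 200 bases kept out of that total, 12 genes were lower and 3 higher, beside 1186 and 2634 of all 11872 records. Without wild-type replicate 1, the library rich in Mir762, the median of the 35 genes was -0.33. Without wild-type replicate 2 it was -0.20, and over all records the median was 0.01 in both cases.

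The mRNA of the lactate exporter fell, and those of both glucose transporters did not pass the test. Slc16a3 encodes MCT4, the lactate exporter of glycolytic cells. Its values were 58.6 and 67.6 FPKM in the wild-type libraries and 30.2 and 25.3 FPKM in the mutant. Both mutant values lay under both wild-type values, a 2.23-fold fall on the FPKM + 1 scale (log2 difference -1.16, SE 0.105, adjusted p = 0.000945), the largest fall of the 35 genes. Its record spans chr11:120948484-120959000. Slc2a1 (GLUT1, the basal glucose transporter) was at 59.9 and 54.5 FPKM in the wild type and at 63.6 and 51.9 FPKM in the mutant. Its groups overlapped, with a log2 difference of 0.01 (SE 0.104, adjusted p = 0.965). Slc2a3 (GLUT3, a high-affinity glucose transporter) was low, at 2.29 and 2.85 FPKM against 1.75 and 2.05 FPKM, and its difference of -0.30 did not pass (adjusted p = 0.117).

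Among the enzymes from hexokinase to triose phosphate isomerase, 3 of 9 fell (33.3%, against 14.3% of all records). Of the others 1 rose (11.1%, against 17.4%) and 5 were not called. The hexokinases, which trap glucose by phosphorylating it, went opposite ways. Hk1, the housekeeping form, was at 8.31 and 7.77 FPKM in the wild type and at 11.1 and 11.3 FPKM in the mutant, and rose 1.35-fold (log2 difference 0.43, SE 0.067, adjusted p = 0.00594). Hk2, the inducible and HIF-responsive form, was at 14.7 and 12.7 FPKM in the wild type and at 10.7 and 8.54 FPKM in the mutant. The groups of Hk2 did not overlap, and it fell 1.39-fold (log2 difference -0.47, SE 0.119, adjusted p = 0.0307), but leaving out either wild-type library (adjusted p = 0.139 and 0.0656) or mutant replicate 2 (0.0603) ended the call. Of the phosphofructokinases, which catalyse the committed step, only the platelet form Pfkp passed, with wild-type values of 2.05 and 2.55 FPKM and mutant values of 1.07 and 1.20 FPKM (log2 difference -0.62, adjusted p = 0.0131). The call on Pfkp was lost without wild-type replicate 2 (adjusted p = 0.0847).

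The liver form Pfkl, which made up 90.8% to 91.4% of phosphofructokinase FPKM in the E16 libraries, was at 129.9 and 141.9 FPKM in the wild type and at 125.0 and 111.7 FPKM in the mutant and did not pass (log2 difference -0.20, adjusted p = 0.0955). The muscle form Pfkm was at 10.1 and 11.4 FPKM against 11.5 and 10.1 FPKM, and its groups overlapped. Tpi1, which interconverts the triose phosphates, was at 671.4 and 737.7 FPKM in the wild type and at 577.7 and 554.7 FPKM in the mutant, a 1.24-fold fall (log2 difference -0.31, adjusted p = 0.0154) that was lost without wild-type replicate 2 (adjusted p = 0.0755) and turned to 0.15 under the common total. Gpi1 ranged from 143.2 to 167.2 FPKM over the 4 libraries, Aldoa from 371.9 to 474.8 FPKM and Aldoc from 3.56 to 4.91 FPKM. The differences of Gpi1 (-0.15, adjusted p = 0.0847), Aldoa (-0.22, adjusted p = 0.0917) and Aldoc (-0.20, adjusted p = 0.257), which encode glucose-6-phosphate isomerase and the aldolases, did not pass.

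All 7 tested genes from Gapdh to lactate dehydrogenase fell on the deposited scale, with a median log2 difference of -0.38, although Gapdh, Pgk1, Pgam1, Eno1 and Pkm turned positive (0.02 to 0.21) under the common total. Ldhb, which encodes the lactate dehydrogenase subunit that favours pyruvate formation, was at 140.4 and 139.0 FPKM in the wild type and at 89.6 and 90.9 FPKM in the mutant. Replicates of Ldhb differed far less than the groups, and it fell 1.54-fold (log2 difference -0.63, SE 0.044, adjusted p = 0.000377). Ldha, the subunit that favours lactate formation and a classic HIF target, was at 818.9 and 905.1 FPKM in the wild type and at 629.3 and 597 FPKM in the mutant. It fell 1.40-fold (log2 difference -0.49, SE 0.067, adjusted p = 0.0039). The phosphoglycerate kinase gene Pgk1 was at 410.5 and 478.7 FPKM against 326.4 and 324.9 FPKM, a 1.36-fold fall (adjusted p = 0.00985).

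Pkm, the pyruvate kinase gene, was at 772.6 and 827.0 FPKM in the wild type and at 627.8 and 603.8 FPKM in the mutant (1.30-fold lower, adjusted p = 0.00561). The phosphoglycerate mutase gene Pgam1 was at 390.6 and 397.0 FPKM against 321.5 and 309.6 FPKM (1.25-fold lower, adjusted p = 0.00516). The smallest falls of the group were those of Gapdh and Eno1. Gapdh, the dehydrogenase often used as a reference gene, was at 2316 and 2447 FPKM in the wild type and at 2009 and 1985 FPKM in the mutant (log2 difference -0.25, adjusted p = 0.0238). Eno1, the ubiquitous enolase, was at 604.8 and 658.8 FPKM against 549.7 and 506.3 FPKM (log2 difference -0.26, adjusted p = 0.0356). The groups overlapped in neither gene, but the call on Gapdh was lost without wild-type replicate 2 or either mutant library (adjusted p 0.0799 to 0.095), and that on Eno1 without either wild-type library or mutant replicate 2 (0.0516 to 0.166).

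Of the 3 flux regulators 2 fell (66.7%, against 14.3% of all records). Pdk1 encodes a pyruvate dehydrogenase kinase, which inhibits pyruvate dehydrogenase. It was at 46.3 and 45.6 FPKM in the wild type and at 36.3 and 34.4 FPKM in the mutant, 1.29-fold lower with no overlap (log2 difference -0.37, SE 0.052, adjusted p = 0.00434), although the difference was 0.08 under the common total. Pfkfb3 and Pfkfb4 make fructose-2,6-bisphosphate, the activator of phosphofructokinase. Pfkfb4 was at 1.62 and 1.97 FPKM against 0.909 and 1.20 FPKM and passed narrowly (log2 difference -0.45, adjusted p = 0.0473), a call lost without either wild-type library or mutant replicate 1 (adjusted p 0.0876 to 0.221). Pfkfb3, at 7.26 and 6.75 FPKM against 5.74 and 4.22 FPKM, did not pass (log2 difference -0.43, adjusted p = 0.0555), although it did without mutant replicate 1 (0.00719).

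Of the HIF alpha and prolyl hydroxylase genes, both hydroxylases fell, 1 alpha subunit rose and the other was not called. Of all records 14.3% fell and 17.4% rose. Egln3 encodes PHD3, a prolyl hydroxylase that is itself induced by HIF. It was at 12.1 and 12.4 FPKM in the wild type and at 5.20 and 5.5 FPKM in the mutant. The fall of Egln3 was 2.09-fold (log2 difference -1.06, SE 0.067, adjusted p = 0.000269), the smallest p of the 35 genes, and its record spans chr12:54178981-54203874. Egln1 (PHD2, the main oxygen sensor) was at 77.0 and 77.9 FPKM against 68.8 and 66.1 FPKM and fell 1.15-fold (adjusted p = 0.0274), although its difference was 0.26 under the common total and the call was lost without either wild-type library or mutant replicate 2 (adjusted p 0.0725 to 0.147). Epas1, which encodes HIF-2 alpha, was at 0.904 and 0.808 FPKM in the wild type and at 1.93 and 1.87 FPKM in the mutant. It rose from a low level (log2 difference 0.64 on the FPKM + 1 scale, SE 0.105, adjusted p = 0.00738), a call lost without wild-type replicate 2 (adjusted p = 0.0505). Hif1a was at 20.3 and 20.8 FPKM in the wild type and at 17.4 and 19.2 FPKM in the mutant and did not pass (log2 difference -0.16, adjusted p = 0.122). Epas1 is known for its high level in endothelium, and the 11 endothelial markers summed to 71.9 and 89.0 FPKM in the wild type and to 60.1 and 46.4 FPKM in the mutant. Much of that sum is Egfl7, at 43.7 and 46.3 against 30.9 and 26.8 FPKM, and of the 8 endothelial markers tested 2 were lower and 6 not called. Their part in the rise of Epas1 was not tested.

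Of the 9 hypoxia targets outside glycolysis, 1 fell (11.1%, against 14.3% of all records), 1 rose (11.1%, against 17.4%) and 7 were not called. As a group they were thus called no more often than all records. Bnip3, a mitophagy receptor of the outer mitochondrial membrane, was at 73.0 and 74.5 FPKM in the wild type and at 57.5 and 44.2 FPKM in the mutant. The mutant libraries of Bnip3 differed from each other more than the wild-type libraries did, and both lay under the wild type (log2 difference -0.54, SE 0.119, adjusted p = 0.0205), but the call was lost without either wild-type library (adjusted p = 0.0787 and 0.103). Its paralogue Bnip3l stayed within 51.3 to 55.9 FPKM (log2 difference -0.08, adjusted p = 0.252). Ndrg1, a stress-induced differentiation gene, was at 2.70 and 2.81 FPKM in the wild type and at 4.61 and 4.14 FPKM in the mutant, and rose 1.43-fold (log2 difference 0.51, adjusted p = 0.00903, lost without wild-type replicate 1). The rest had differences of -0.35 (P4ha2) to 0.14 (Ero1l). Over the 4 E16 libraries the mTORC1 inhibitor Ddit4 ranged from 69.0 to 83.3 FPKM and the procollagen prolyl hydroxylase subunits P4ha1 and P4ha2 from 15.4 to 19.9 FPKM and from 6.27 to 9.99 FPKM. The groups of Ddit4 and P4ha1 overlapped. The oxidoreductase Ero1l ranged from 11.3 to 13.9 FPKM, Ankrd37 from 8.64 to 11.0 FPKM and the carbonic anhydrase Car9 from 0.780 to 1.39 FPKM.

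**Figure D2:**
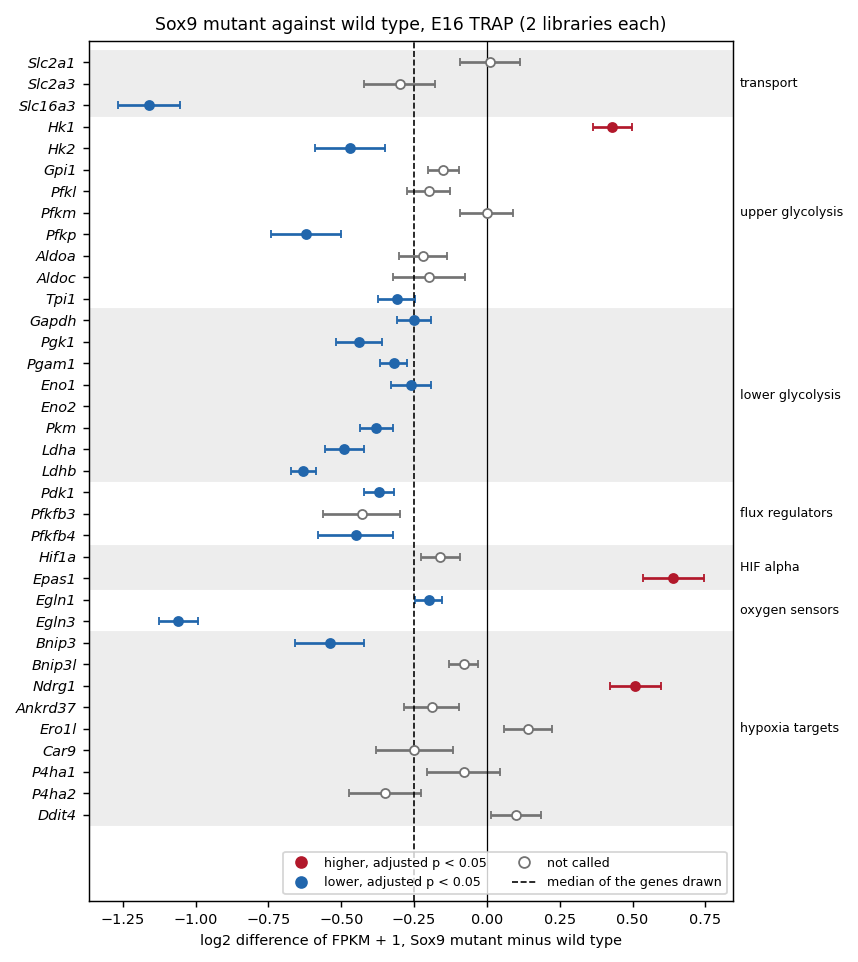
log2 difference of FPKM + 1, mutant minus wild type, for the 35 genes tested, with the limma standard error as bars, coloured by call at an adjusted p under 0.05. On the deposited scale every tested gene of lower glycolysis lies left of 0 (5 of them turn positive under a common FPKM total), while Hk1, Epas1 and Ndrg1 lie right of it.

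Ratios between paralogues do not depend on how libraries are scaled, and they moved in several pairs. With 2 libraries against 2 an exact permutation test cannot reach 0.05, so shares are given as values. Hk2 made up 63.8% and 62.1% of hexokinase FPKM (Hk1 plus Hk2) in the wild type and 49.0% and 43.0% in the mutant, so Hk1 was the more abundant of the pair in both mutant libraries, narrowly in replicate 1. Egln3 made up 13.6% and 13.7% of Egln1 plus Egln3 in the wild type and 7.03% and 7.68% in the mutant. Epas1 made up 4.26% and 3.74% of Hif1a plus Epas1 in the wild type and 9.95% and 8.85% in the mutant. None of these groups overlapped. Bnip3 went from 57.1% ± 0.0928 (SD, n = 2) to 49.1% ± 3.95 (SD, n = 2) of Bnip3 plus Bnip3l, and P4ha2 from 32.8% ± 0.899 to 28.3% ± 0.848 (SD, n = 2 each) of P4ha1 plus P4ha2. Lactate dehydrogenase was steadier: Ldhb made up 14.6% and 13.3% in the wild type and 12.5% and 13.2% in the mutant, and the nearest libraries were close. The shares of Slc2a3 among Slc2a1 plus Slc2a3 and of Pfkfb4 among Pfkfb3 plus Pfkfb4 overlapped between the groups.

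**Figure D3:**
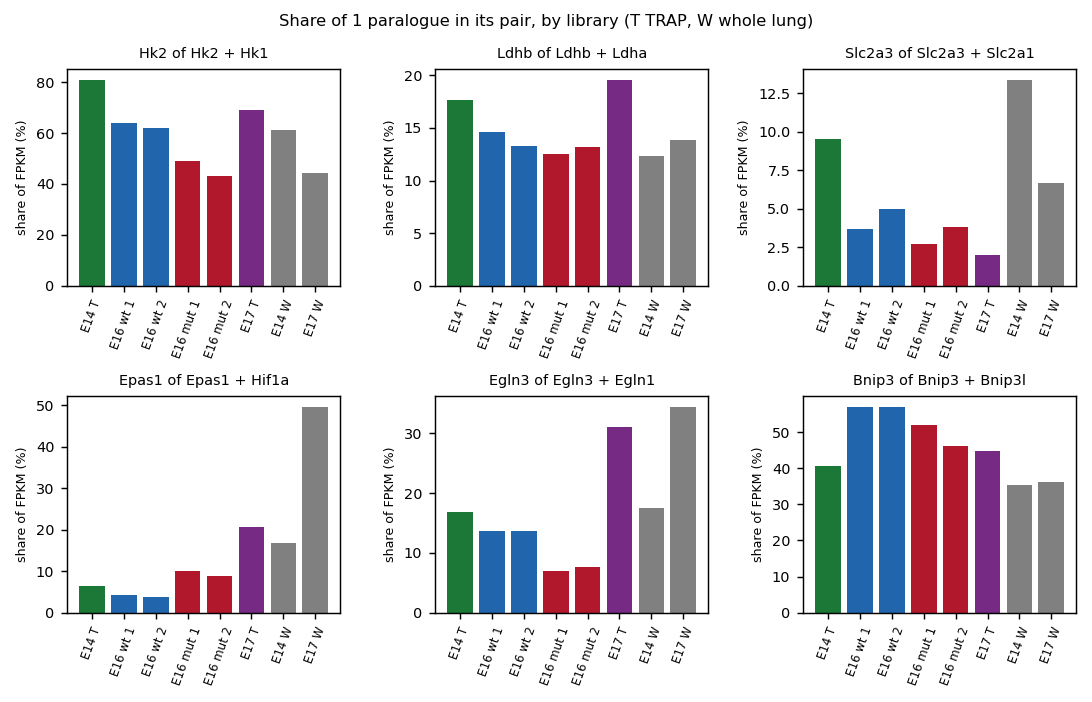
Share of 1 paralogue in the FPKM of its pair, in percent, for 6 pairs in each of the 8 libraries; each bar is 1 library (T is TRAP, W whole lung, wt wild type, mut mutant). Hk2 and Egln3 stand lower in both E16 mutant libraries than in both wild-type ones and Epas1 stands higher, and Epas1 reaches 49.7% of the HIF alpha pair in E17 whole lung.

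The second comparison set TRAP against whole lung in a fit over both stages with stage as a term. It sets RNA on the ribosomes of labelled cells against total mRNA of the homogenate. Cell type, the share of an mRNA on ribosomes and the RNA preparation therefore cannot be told apart. Of the 35 genes tested, 14 were higher in TRAP (40.0%, against 23.6% of all 12320 records tested) and 1 was lower (2.9%, against 17.1% of all records). The median log2 difference was 0.22, against 0.05 over all records. Each gene's own error is only the disagreement between the 2 stages (1 residual degree of freedom). To it limma adds variance borrowed from all records tested (4.47 prior degrees of freedom). Without the stage term 1 gene was called higher and 0 lower, beside 159 and 415 of all 12320 records. With a common FPKM total the median over all records became -0.29. The counts then became 1 higher and 3 lower, beside 547 and 2863 of all records. The 14 genes stand beside the epithelial markers, which summed to 2690 (E14) and 2930 FPKM (E17) in TRAP against 583 and 1040 FPKM in whole lung. The sum of the 10 erythroid markers found, mostly globin genes, went the other way, from 19300 and 20600 FPKM in whole lung to 4290 and 5450 FPKM in TRAP. Of the 9 erythroid markers tested 8 were lower in TRAP and 1 was not called. The part of the epithelial or erythroid markers in the result was not tested.

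Lower glycolysis was again the uniform group: all 7 tested genes were higher in TRAP, with a median log2 difference of 0.74. Under the common total none of the 7 was called, and the difference of Pgam1 turned to -0.07. Without the stage term the calls on Gapdh, Pgk1, Pgam1, Eno1, Pkm and Ldha were lost, and that on Ldhb held. The call on Pgam1 was also lost without the filter or the trend. Ldhb was at 154.0 FPKM in TRAP and 60.8 FPKM in whole lung at E14, and at 163.7 and 64.6 FPKM at E17. The difference of Ldhb was the same at both stages (log2 1.33 at each, adjusted p = 0.000855). Gapdh was at 2975 and 1386 FPKM at E14 and at 2234 and 1243 FPKM at E17 (log2 differences 1.10 and 0.85, adjusted p = 0.00385). Pkm was at 1009 and 532.1 FPKM at E14 and at 616.1 and 389.9 FPKM at E17 (0.92 and 0.66, adjusted p = 0.005). Both enzymes were thus further apart at E14. Ldha was at 717.4 and 434.0 FPKM at E14 and at 669.6 and 399.3 FPKM at E17, with nearly equal log2 differences of 0.72 and 0.74 (adjusted p = 0.00403). Eno1 (0.94 and 0.54), Pgk1 (0.46 and 0.47) and Pgam1 (0.32 at each stage) were also higher, with adjusted p of 0.00884, 0.0122 and 0.0404.

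Upstream, the isoforms divided. Hk2 was at 27.1 FPKM in TRAP and 12.3 FPKM in whole lung at E14, and at 19.3 and 7.13 FPKM at E17 (log2 differences 1.08 and 1.32, adjusted p = 0.00209). Hk1 was at 6.34 and 7.79 FPKM at E14 and at 8.56 and 8.98 FPKM at E17, lower in TRAP at both stages without passing (-0.26 and -0.06, adjusted p = 0.386). Hk2 accordingly made up 81.0% (E14) and 69.2% (E17) of the hexokinase pair in TRAP, against 61.2% and 44.3% in whole lung. Pfkl (0.80 and 0.56, adjusted p = 0.00644) and Tpi1 (0.85 and 0.77, adjusted p = 0.00286) passed, whereas Pfkm and Pfkp did not. The differences of Gpi1, Aldoa and Aldoc did not pass either.

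Slc2a1 was at 47.4 FPKM in TRAP and 31.2 FPKM in whole lung at E14, and at 73.3 and 42.1 FPKM at E17 (log2 differences 0.58 and 0.79, adjusted p = 0.00599). Slc16a3 was at 26.7 and 18.3 FPKM at E14 and at 21.5 and 16.1 FPKM at E17 (0.52 and 0.40, adjusted p = 0.0229). Both transporters were thus higher in TRAP at both stages. Pdk1 (0.86 and 0.74, adjusted p = 0.00509) and Ddit4 (0.44 and 0.65, adjusted p = 0.0119) completed the 14.

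The HIF genes and most targets did not follow the enzymes. Epas1 was at 1.84 FPKM in TRAP and 5.65 FPKM in whole lung at E14, and at 6.99 and 20.8 FPKM at E17, the 1 gene lower in TRAP (log2 differences -1.23 and -1.45, adjusted p = 0.00238). The endothelial markers, whose cell type is known for Epas1, summed to 68.6 and 109 FPKM in TRAP against 350 and 635 FPKM in whole lung. Hif1a was at 26.4 and 27.7 FPKM at E14 and at 27.0 and 21.0 FPKM at E17 and did not pass (adjusted p = 0.434). Neither prolyl hydroxylase gene passed, and among the 9 other hypoxia targets only Ddit4 did (11.1%, against 23.6% of all records higher in TRAP).

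**Figure D4:**
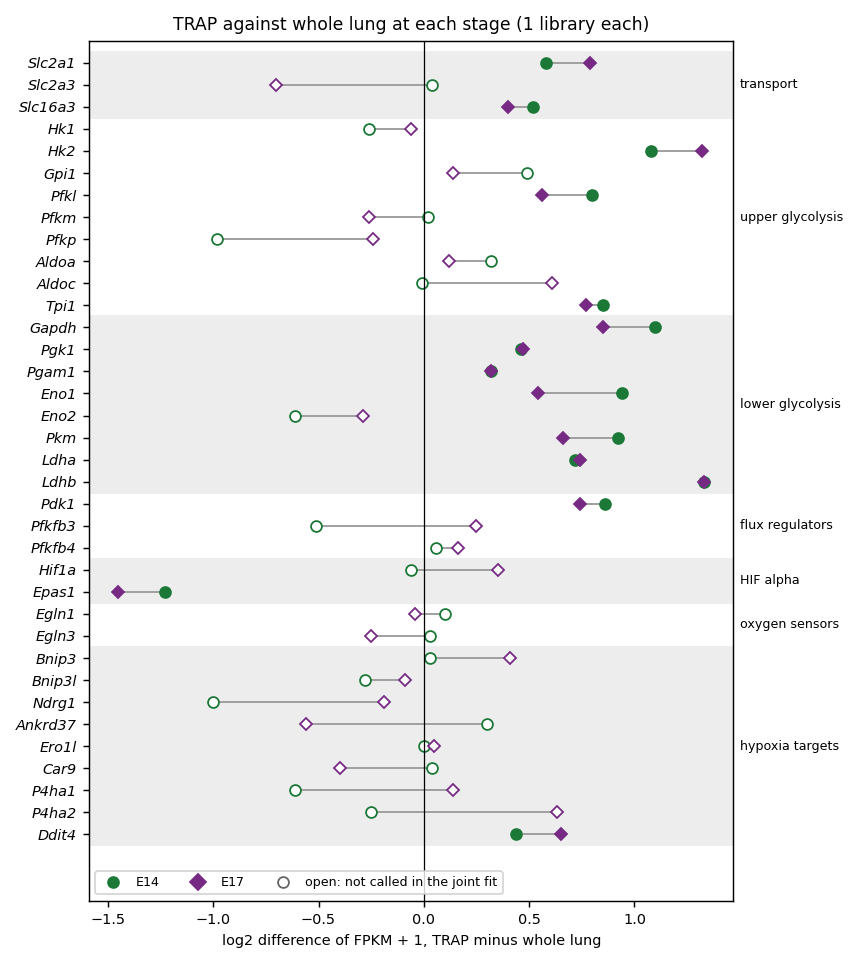
log2 difference of FPKM + 1, TRAP minus whole lung, at E14 (circles) and E17 (diamonds), 1 library each; filled symbols mark genes called in the joint fit, and Eno2, under the filter, is drawn open. On the deposited scale the genes of lower glycolysis other than Eno2 lie right of 0 at both stages (Pgam1 turns to -0.07 under a common FPKM total), and Epas1 lies left of it at both.

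From E14 to E17 several genes of the oxygen response were higher in both fractions. With 1 library per stage there is no test, and a gene was counted when FPKM + 1 differed at least 2-fold. In TRAP 4 of 35 genes were higher at E17 (11.4%, against 4.75% of all records) and 1 was lower (2.9%, against 1.91%). In whole lung 5 were higher (14.3%, against 4.83%) and 0 were lower (0.0%, against 1.3%). Ndrg1 went from 0.704 to 9.17 FPKM in TRAP and from 2.40 to 10.6 FPKM in whole lung (log2 differences 2.58 and 1.78). Egln3 went from 7.52 to 21.6 FPKM in TRAP and from 7.36 to 25.9 FPKM in whole lung (1.41 and 1.69). Both genes were higher at E17 in either fraction. Ankrd37 went from 5.59 to 13.8 FPKM in TRAP and from 4.35 to 20.8 FPKM in whole lung (1.17 and 2.03), and Epas1 differed by 1.49 and 1.71 at the values given above.

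Car9, the carbonic anhydrase of the cell surface, passed 2-fold in whole lung (0.576 to 2.46 FPKM) and not in TRAP (0.625 to 1.62 FPKM). Slc2a3 went the other way, from 4.99 to 1.47 FPKM in TRAP and from 4.84 to 3.01 FPKM in whole lung. Eno1 was near 2-fold lower in TRAP, from 960.4 to 500.0 FPKM (log2 difference -0.94), with -0.54 in whole lung. Pkm was also lower at E17, by -0.71 in TRAP and -0.45 in whole lung, and Hk2 by -0.47 and -0.71. On the FPKM + 1 scale no glycolytic enzyme passed 2-fold, but this rests on the added 1 FPKM for the low ones. In the deposited FPKM, Pfkp went from 0.805 to 2.59 FPKM in TRAP, a ratio of 3.22, and Aldoc from 1.25 to 3.31 FPKM, a ratio of 2.64, against 2.87 for Egln3 and 2.47 for Ankrd37. With an added 0.1 FPKM, 7 genes passed 2-fold upwards in TRAP, the 4 above with Pfkp, Aldoc and Car9.

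**Figure D5:**
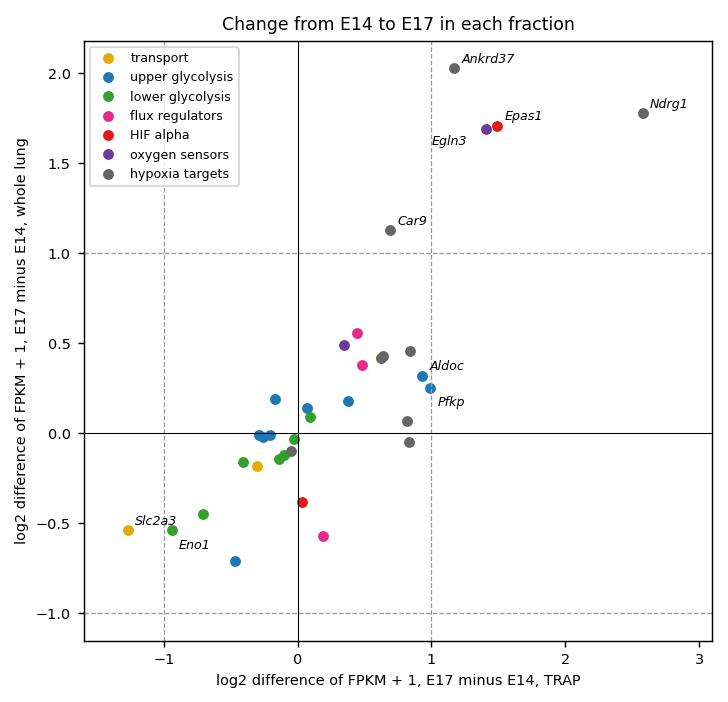
log2 difference of FPKM + 1 from E14 to E17 in TRAP (x axis) and in whole lung (y axis) for the genes tested, 1 library per stage and fraction; dashed lines mark 2-fold. Ndrg1, Epas1, Egln3 and Ankrd37 lie past 2-fold in both fractions, and Slc2a3 lies past it downwards in TRAP.

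The wild-type TRAP libraries at E16 did not always lie between those of E14 and E17. This was looked at after the values were seen. Both E16 values lay above both flanking TRAP values for 14 of 35 genes (40.0%, against 24.3% of all records) and below both for 7 (20.0%, against 29.6%). Slc16a3 stood out, with 26.7 FPKM at E14, 58.6 and 67.6 FPKM at E16 and 21.5 FPKM at E17, so that the E16 mean was 2.37 times the higher flanking value. The same ratio was 1.87 for Pdk1 (17.9, then 46.3 and 45.6, then 24.5 FPKM), 1.72 for Pgk1, 1.71 for Bnip3 and 1.62 for Egln1. For Epas1 it was 0.122, the lowest of the genes. The mutant values of Slc16a3, 30.2 and 25.3 FPKM, were near those of E14 and E17 TRAP. Whether stage, the differently titled E16 preparation or another difference between the sets of libraries goes with these values cannot be told apart.

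Genes of neighbouring pathways were counted in the same fits, in which 17.4% of all records were higher and 14.3% lower in the mutant, and 23.6% were higher and 17.1% lower in TRAP. Of 17 tested glycolytic enzymes and transporters outside the 36, 3 rose (17.6%) and 2 fell (11.8%) in the mutant, close to those shares, with a median log2 difference of 0.03. In TRAP 7 were higher (41.2%) and 3 lower (17.6%). The muscle enolase Eno3 rose from 9.11 and 8.80 FPKM to 19.5 and 13.0 FPKM in the mutant (log2 difference 0.77, adjusted p = 0.0213). The monocarboxylate transporter Slc16a1 was higher in TRAP (0.92, adjusted p = 0.00306), as was the hexokinase-related Hkdc1 (0.89, adjusted p = 0.0171). Of 12 genes for the entry of pyruvate into the mitochondrion and its first reactions there, 2 rose in the mutant (16.7%) and 0 fell. The larger rise was that of the pyruvate carboxylase gene Pcx (0.39, adjusted p = 0.0227). Of 8 pentose phosphate genes 3 fell (37.5%) and 2 rose (25.0%) in the mutant. Rpia, the ribose-5-phosphate isomerase gene, fell from 24.1 and 24.9 FPKM to 16 and 17.4 FPKM (-0.53, adjusted p = 0.00233), and the transketolase gene Tkt fell from 85.4 and 87.9 FPKM to 66.5 and 62.1 FPKM (-0.43, adjusted p = 0.0029).

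Of 4 tested genes of gluconeogenesis 2 rose in the mutant. Fbp2, the muscle fructose bisphosphatase, was at 0.467 and 0.533 FPKM in the wild type and at 5.04 and 6.31 FPKM in the mutant. The rise of Fbp2 was larger than that of any of the 36 genes (log2 difference 2.15, adjusted p = 0.000206). Of the 9 cardiac and skeletal muscle markers 4 were tested and 1 was higher in the mutant: their sum went from 13.9 and 17.3 FPKM to 47.0 and 41.2 FPKM, nearly all through Myh7, at 1.33 and 1.24 against 35.0 and 27.1 FPKM. Their part in the rise of Fbp2 was not tested. Of 13 partners and regulators of HIF 4 rose (30.8%) and 2 fell (15.4%) in the mutant. Hif3a, an alpha subunit that can restrain HIF, was at 12.8 and 11.4 FPKM in the wild type and at 22.7 and 20.7 FPKM in the mutant (0.80, adjusted p = 0.00124). Hif1an (FIH, the asparaginyl hydroxylase of HIF) rose by 0.49 (adjusted p = 0.00271), and Arnt2, an alternative dimer partner, differed by -0.63 (adjusted p = 0.00197). Hif3a was also higher at E17 than at E14, by 1.95 in TRAP and 1.25 in whole lung.

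Of 26 tested hypoxia targets outside the 36, 4 rose (15.4%) and 6 fell (23.1%) in the mutant, with a median log2 difference of -0.12. The falls were led by the lysyl oxidase relative Loxl2 (-0.77, adjusted p = 0.00515), the cytokine Mif (-0.72, adjusted p = 0.00115) and the transferrin receptor Tfrc (-0.63, adjusted p = 0.00866). In TRAP 9 of 28 were higher (32.1%) and 8 lower (28.6%), the lower ones led by the collagen-modifying genes Lox (-3.68, adjusted p = 0.000586) and Plod1 (-1.78, adjusted p = 0.00109). The mesenchymal markers summed to 96.0 and 114 FPKM in TRAP and to 1120 and 1400 FPKM in whole lung beside these falls, and their part was not tested. From E14 to E17 Ppp1r3c (1.78 and 1.82), Bhlhe40 (1.5 and 1.33) and Vldlr (1.41 and 1.98) were more than 2-fold higher in TRAP and in whole lung.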

How the data were processed

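RNA was measured in 8 libraries, each with a deposited table of FPKM and its lower and upper confidence bounds per record, per the file headers. The submitters' processing notes name mm10 as the build and list TopHat2 (2.0.14), Bowtie2 (2.2.3), Cufflinks (2.2.1) and Cuffnorm as the authors' tools for the deposited FPKM. How libraries were scaled and reads shared between gene copies is not stated there. The values are FPKM, not counts, so log2(FPKM + 1) was tested with limma 3.58.1 (R 4.3.3), eBayes with a trend, two-sided, with Benjamini-Hochberg adjustment over every record whose mean reached 1 FPKM (11872 for the mutant, 12320 for TRAP). Fold changes are on this scale and understate those of low genes. The mutant fit used the 4 E16 libraries (2 residual and 3.73 prior degrees of freedom). The TRAP fit used the 4 E14 and E17 libraries with stage as a term (1 residual and 4.47 prior degrees of freedom). The prior part is variance that eBayes borrows from all records tested. Stage differences had 1 library each and no test.

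Groups came from the titles and characteristics. The E16 replicates were separate libraries, with a mean squared difference between replicates of 5.47 (wild type) and 7.108 (mutant) times counting error over 8772 records. Fragments were inferred from the bounds, taken as 2 standard errors each way. All 36 genes are named, and of the other lists up to 3 called genes per list and comparison with the largest difference. The members and lists were chosen with earlier results of these data known. The fits were run on simulated data with planted fold changes and independent noise. That simulation held no stage effect and no shift in library scale, so it does not bear on either. Alternatives were another pseudocount, filter, scaling, error model, fold, replicate block and leaving out each E16 library. Promoter windows came from RefSeq by symbol or synonym.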

Additional observations from a re-analysis of the deposited data

Results flagged for a closer look

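For 12 genes the E14 and E17 libraries gave TRAP minus whole lung differences of opposite sign. Each stage has 1 library per fraction, so the difference between stages was not tested, and several values are close to 0. On the log2(FPKM + 1) scale, E14 value before E17 value, P4ha1 had -0.61 and 0.14, P4ha2 -0.25 and 0.63, Pfkfb3 -0.51 and 0.25, and Hif1a -0.06 and 0.35, all higher in TRAP at E17 only. Aldoc had -0.01 and 0.61. Slc2a3 had 0.04 and -0.70, Ankrd37 0.30 and -0.56, Car9 0.04 and -0.40, Egln3 0.03 and -0.25, Pfkm 0.02 and -0.26, and Egln1 0.10 and -0.04, all lower in TRAP at E17 only. For Ero1l the E14 values were nearly equal (9.793 FPKM in TRAP and 9.795 FPKM in whole lung), so its sign at E14 carries no weight. The E17 difference of Ero1l was 0.05.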

How the results depend on the processing

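In the mutant comparison the common FPKM total left 0 genes higher and 0 lower (167 and 58 of all 11872 records), with a median of 0.15 in place of -0.25. It gave 0.15 for Tpi1, 0.21 for Gapdh, 0.02 for Pgk1, 0.14 for Pgam1, 0.20 for Eno1, 0.08 for Pkm, 0.08 for Pdk1, 0.26 for Egln1 and, in TRAP, -0.07 for Pgam1. Of all mutant calls, 54.9% were higher on the deposited scale, 74.2% with that total, 69.0% with it less records under 200 bases and 42.8% with centring on the median, where 20 members were lower. A filter of 5 FPKM left 1 gene higher. Leaving out each E16 library gave 8 to 18 genes lower, 2 to 3 higher and medians of -0.33 to -0.20; the 8 came without wild-type replicate 2. With a replicate block 3 genes were higher and 16 lower, median -0.25; Eno1 was lost (adjusted p = 0.0568) and Pfkfb3 gained, and same-numbered libraries did not deviate together (correlation 0.007).

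In TRAP the common total gave 1 higher, 3 lower and a median of -0.16, beside 547 and 2863 of all 12320 records. No stage term gave 1 higher and 0 lower (159 and 415 records). The error of the E16 replicates gave 15 higher and 5 lower (4645 and 3734 records). Calls in TRAP were 58.0% higher on the deposited scale, 16% with the common total. For stage in TRAP, 7 genes were higher with a pseudocount of 0.1, 2 with the common total and 13 at 1.5-fold, and 3 were lower with the common total and 3 at 1.5-fold. In whole lung 1 was lower at 1.5-fold. At least 4 settings ended the mutant calls on Hk2, Gapdh, Eno1, Pfkfb4, Egln1 and Bnip3 and the TRAP call on Pgam1, and most TRAP calls were lost under the common total and without the stage term. The cause was not tested in any of these. At E16 the low genes rested on 32 to 56 inferred fragments per library for Car9 and 78 to 159 for Pfkfb4. The ranges were 99 to 220 for Pfkp and 106 to 266 for Epas1. At E17 Epas1 had 745 in TRAP and 2434 in whole lung.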
